A study of Mus musculus with 12 samples.

Results

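The 4 genes Penk, Lad1, Ncs1 and 1110032F04Rik were followed in mouse natural killer (NK) cells, lymphocytes that kill target cells and secrete interferon gamma. They were chosen by their symbols, and the symbols had been chosen on these same values, because the genes gave almost no reads in unstimulated cells and rose far in both stimulated groups. They are 4 of the 55487 features in the table. RNA was sequenced from 12 samples in 3 groups of 4, all from mice of the strain B6.129S4-Ifngtm3.1Lky/J with the genotype mut/mut, whose interferon gamma gene, Ifng, carries a reporter of yellow fluorescent protein (YFP). The sample titles add "HD IL-15" in every group. One group was unstimulated, with no time given. The other two were treated with anti-NK1.1, an antibody to an activating surface receptor of NK cells, for 6 h, and were named by the reporter as YFP- and YFP+. Each group holds samples labelled f2, m2, m3 and m4, but the labels name no mouse and no age, so p-values measure only the spread between these samples.

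Penk encodes proenkephalin, the precursor that is cleaved at paired basic residues to release the enkephalins, opioid peptides best known as neurotransmitters. Lad1 encodes ladinin-1, a protein of the basement membrane zone of epithelia, and Ncs1 encodes neuronal calcium sensor 1, an EF-hand protein that binds calcium and acts on phosphatidylinositol 4-kinase beta and inositol trisphosphate receptors. The gene named 1110032F04Rik has only a clone-derived name, and no role is given for it here. NK cells read receptors such as NK1.1 through a kinase cascade and calcium release, which drive fast transcription of cytokine genes.

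All 4 genes are annotated as protein coding (GRCm38, GENCODE M21). Penk (ENSMUSG00000045573) lies on the minus strand at chr4:4133531-4138819. Lad1 (ENSMUSG00000041782) lies on the plus strand at chr1:135818598-135833342, Ncs1 (ENSMUSG00000062661) on the plus strand at chr2:31245823-31295989, and 1110032F04Rik (ENSMUSG00000046999) on the plus strand at chr3:68869586-68872163. Their exons cover 1634, 3400, 4653 and 2578 bases in the same order.

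What the Penk transcript can yield is visible in its coding sequence. The longest open reading frame of its longer annotated transcript has 268 codons before the stop and holds 7 enkephalin copies, 6 of Met-enkephalin and 1 of Leu-enkephalin. Each copy is shown 5′ to 3′ on the transcript strand, with the 15 bases of the pentapeptide in capitals and the codons on either side in lower case.
Met-enkephalin, codons 100 to 104: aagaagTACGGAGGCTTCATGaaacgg
Met-enkephalin, codons 107 to 111: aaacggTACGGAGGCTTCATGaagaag
Met-enkephalin, codons 136 to 140: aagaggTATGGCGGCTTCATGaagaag
Met-enkephalin, codons 187 to 191: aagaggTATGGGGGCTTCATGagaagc
Met-enkephalin, codons 211 to 215: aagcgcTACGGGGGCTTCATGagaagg
Leu-enkephalin, codons 231 to 235: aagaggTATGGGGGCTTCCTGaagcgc
Met-enkephalin, codons 262 to 266: aaaagaTACGGGGGCTTTATGcggttc
All 7 copies follow a pair of lysine or arginine codons, and 5 of them are also followed by one. The 7 copies are spelled by 6 different runs of 15 bases.

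RefSeq sequences (GRCm38.p6) matched 2 of the 4 genes, Lad1 and Ncs1, and their start regions are shown for that reason. Both genes went from near silence to well over 10 CPM (reads scaled to a library of 1 M, where M stands for mega). They differ in base composition. The Lad1 run is the 250 bases before its start, chr1:135818348-135818597, on the plus strand, with its single NFAT core motif in capitals.
Lad1: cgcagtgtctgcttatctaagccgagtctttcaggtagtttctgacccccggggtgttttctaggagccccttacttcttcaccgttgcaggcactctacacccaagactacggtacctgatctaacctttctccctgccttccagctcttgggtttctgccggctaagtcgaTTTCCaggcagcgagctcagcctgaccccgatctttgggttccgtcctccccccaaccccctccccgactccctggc
The Ncs1 run is the 150 bases before its GENCODE start, chr2:31245673-31245822, on the plus strand, with GC box letters in capitals.
Ncs1: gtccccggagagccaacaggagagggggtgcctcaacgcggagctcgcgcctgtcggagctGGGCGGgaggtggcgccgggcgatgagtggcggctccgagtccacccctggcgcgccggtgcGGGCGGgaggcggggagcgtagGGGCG
A GC box of Ncs1, at 31245818-31245823, crosses the GENCODE start, so its last base is not printed; the RefSeq start lies 100 bases further on. The 250 bases searched before the RefSeq start of Ncs1 were 75.6% G or C with 34 CpG pairs, and those of Lad1 were 57.6% with 11, against medians of 52.4% and 6 over 32851 mouse promoters. Motifs were searched on both strands of these 250 bases. Lad1 held 1 NFAT core (GGAAA, here on the other strand, the site of a calcium-driven factor), which 55.6% of all promoters hold. Ncs1 held 3 GC boxes (GGGCGG), which 32.7% of promoters hold. Neither run held the AP-1 motif (TGANTCA), found in 6.75% of promoters, or the CRE (TGACGTCA), found in 1.55%. The half-site TGACG, which lies within the CRE, was not in these windows either and is found in 17.8%. The same held for NBRE (AAAGGTCA, 1.34% of promoters) and for EGR (GCGNGGGCG, which overlaps GC box letters, 4.70%). The TATA box (TATAAA, 12.4%) and kappa B (3.90%) were not found either.

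Libraries held 32.1 to 54.2 M reads, so 3 reads, the smallest level taken as shown, stood for 0.0553 to 0.0933 CPM. Ifng, the gene that drives the reporter, was at 3.92 ± 0.239 CPM (SD, n = 4) without stimulation, and stimulated samples had 45.8 ± 7.37 where YFP- and 329 ± 18.2 where YFP+. Summed levels of 11 NK cell markers ran from 18690 to 42431 CPM over the 12 libraries. Single markers went both ways: against unstimulated 3 were called higher and 6 lower in YFP- (all genes, 30.2% and 20.9%). The counts were the same in YFP+ (27.5% and 33.3%). Between reporter groups 2 were higher and 4 lower in YFP+ (3.28% and 18.5%). In 3 of 3 other scalings Gzmb and Nkg7 were called higher there, and Klrb1c, Klrd1, Ncr1 and Eomes lower. Of other cells, 7 T cell markers summed to between 52.6 and 113 CPM over the libraries. Cd3g stood at 47.9, 32.5 and 20.6 CPM in the unstimulated, YFP- and YFP+ groups, Cd3d at 17.8, 15.7 and 10.4, and Trac, called higher in YFP+ than in YFP-, at 7.43, 34.3 and 48.4, while Cd4, Cd8a and Cd8b1 had 7 reads or fewer in each library. The 5 B cell, 6 macrophage and 6 mast cell markers summed to at most 4.19, 2.89 and 38.7 CPM. The 5 dendritic cell markers summed to between 2.18 and 3.57 CPM without stimulation, between 18.8 and 22.1 among YFP- samples, and between 7.05 and 13.5 among YFP+ samples. Only 2 of these 5, Xcr1 and Zbtb46, passed the filter on low values. The m3 libraries had the highest share of reads on rRNA-like features in each stimulated group, 30.3% in YFP- and 29.8% in YFP+, against 13.7% to 23.1% in the other stimulated libraries.

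In unstimulated cells 3 of the 4 genes were at the edge of detection and the fourth was not. Penk had 4, 2, 0 and 8 reads in samples f2, m2, m3 and m4, and Lad1 had 4, 3, 0 and 4. Ncs1 had 2, 8, 6 and 4 reads. These levels, at most 0.247 CPM, lay within a few reads of the floor, and in 2 libraries for Penk, 2 for Lad1 and 1 for Ncs1 at or under it. 1110032F04Rik had 22, 16, 20 and 14 reads, a level of 0.483 ± 0.0724 CPM (SD, n = 4) that stood above the floor in all 4 libraries. It is therefore better called low than silent.

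Penk had the highest mean level per exon length of the 4 in both stimulated groups. It stood at 85.5, 43.9, 23.6 and 34.2 CPM in YFP- samples f2, m2, m3 and m4. In YFP+ samples with the same labels it stood at 197, 99.4, 65.7 and 95.8 CPM. Sample f2 was the highest and m3 the lowest in both groups. The lowest stimulated library lay 95.7-fold above the highest unstimulated one. From reads pooled over each group, Penk was 493-fold above unstimulated in YFP- (95% exact interval 294 to 902) and 1268-fold in YFP+ (755 to 2319). All intervals here cover counting error only, with 14 unstimulated reads behind these. On the deposited log2 scale, which adds about 0.5 reads, the rises were 9.22 and 10.55, the second largest and the largest of 12364 genes tested in the 2 comparisons. These rises describe why the gene was chosen and were not tested.

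Lad1 stood as far above its unstimulated level, with the higher mean in the reporter-negative group. Its levels were 78.9, 64.2, 34.6 and 78.4 CPM in YFP- samples f2, m2, m3 and m4. The YFP+ samples were at 56.9, 39.8, 14.9 and 23.6 CPM. Sample m3 was again the lowest of each group. Pooled reads gave 871-fold above unstimulated in YFP- (95% exact interval 487 to 1745, with 11 unstimulated reads) and 491-fold in YFP+ (274 to 984). The log2 rises of 9.87 and 8.85 ranked first in YFP- and seventh in YFP+.

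Ncs1 was at 19.9, 37.4, 15.5 and 28.0 CPM in YFP- samples f2, m2, m3 and m4. Its YFP+ levels were 94.1, 77.5, 38.8 and 47.9 CPM. Every YFP+ sample lay above every YFP- sample, and m3 was the lowest of both groups. Pooled reads gave 190-fold (95% exact interval 123 to 312, with 20 unstimulated reads) in YFP- and 508-fold (329 to 833) in YFP+, and log2 rises of 7.48 and 8.83 at ranks 10 and 8.

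1110032F04Rik was at 11.8, 10.4, 9.63 and 12.6 CPM in YFP- samples f2, m2, m3 and m4. It was at 11.8, 15.7, 12.4 and 23.1 CPM in the YFP+ samples. The YFP- samples hardly differed from each other (coefficient of variation 12.2%), and the YFP+ samples differed more (33.1%). For Penk these values were 57.9% in YFP- and 50.0% in YFP+. Sample m4 was the highest for 1110032F04Rik in both groups. Pooled reads gave 23.0-fold (95% exact interval 18.2 to 29.5) in YFP- and 31.5-fold (24.9 to 40.3) in YFP+. With log2 rises of 4.49 and 4.95 it ranked 95th and 104th, far behind the other 3 genes.

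**Figure D1:**
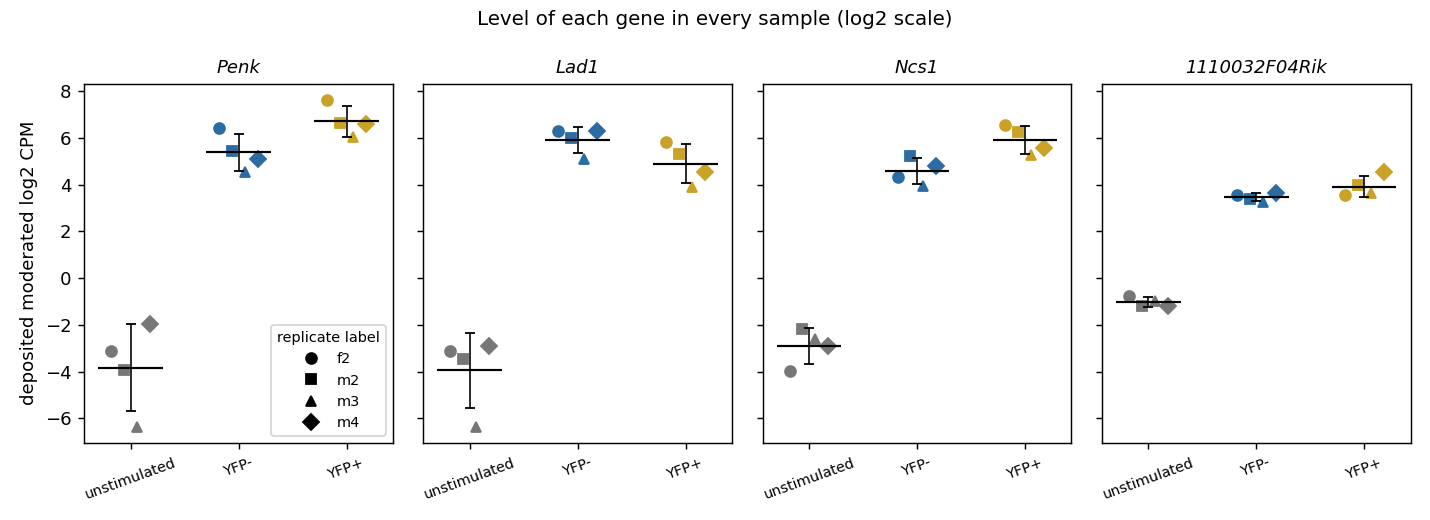
Deposited moderated log2 CPM (y axis) of each gene in the 12 samples by group (x axis), with a symbol per replicate label, the mean as a line and bars of 1 SD (n = 4). The unstimulated samples of Penk and Lad1 fall lowest, down to the value of 0 reads at -6.35, while 1110032F04Rik starts near -1.03.

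Per kilobase of exon, the YFP- order was Penk at 28.6 CPM (14.4 to 52.3 over samples), Lad1 at 18.8 (10.2 to 23.2), Ncs1 at 5.42 (3.32 to 8.04) and 1110032F04Rik at 4.31 (3.74 to 4.90). The ranges of Penk and Lad1 overlapped, as did those of Ncs1 and 1110032F04Rik, and both of the former lay above both of the latter. In YFP+ samples the order was Penk at 70.1 CPM per kilobase (40.2 to 121), Ncs1 at 13.9 (8.34 to 20.2), Lad1 at 9.94 (4.40 to 16.7) and 1110032F04Rik at 6.10 (4.56 to 8.97). There Penk stood apart from the rest, and the ranges of the other 3 overlapped. In these bulk samples, more cells with a transcript and more transcript per cell cannot be told apart.

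The difference between the reporter groups was not used to choose the genes and was tested. Ncs1 was called higher in YFP+ cells and the 3 others were not, though Penk differed by 1.34 in log2 beside 1.35 for Ncs1. Penk and Lad1 kept 1 direction in 4 of 4 labels and were called in some other fits, given below. Of the 4 genes 1 was called higher and 0 lower (limma over 12364 genes, Benjamini-Hochberg adjusted p under 0.05; at an unadjusted p under 0.05 the counts were also 1 and 0), against 3.28% of all genes called higher and 18.5% called lower. The median log2 difference of all genes was -0.19. That split depended on scaling: 405 genes were higher and 2286 lower as deposited, and 1505 and 1491 after each sample was centred on its median, which moved the median difference to 0.07.

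Ncs1 differed by 1.35 on the log2 scale (SE 0.39, adjusted p 0.0251 by limma), a ratio of mean CPM of 2.56. The exact 2-sided permutation test over the 8 samples gave p = 0.0286, the smallest that 4 against 4 allows. The differences between samples of the same label were 2.24, 1.05, 1.33 and 0.77 for f2, m2, m3 and m4, so f2 moved most. The limma call was lost without YFP- f2 (adjusted p 0.0740), YFP- m3 (0.0693), YFP+ f2 (0.0552) or YFP+ m2 (0.0581), and without label m3 in all groups (0.0536), with log2 differences of 1.14 to 1.35.

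Penk had a log2 difference, YFP+ minus YFP-, of 1.34 (SE 0.72, adjusted p 0.208 by limma; exact permutation p = 0.0571), with a ratio of mean CPM of 2.45. Its groups overlapped, because YFP- f2, at 85.5 CPM, lay above YFP+ m3, at 65.7 CPM. Within labels the differences were 1.21, 1.18, 1.48 and 1.49 for f2, m2, m3 and m4, higher in YFP+ in 4 of 4. The SE includes the spread of the unstimulated libraries, whose log2 SD was 1.87 against 0.78 in YFP- and 0.66 in YFP+, since a few reads decide their values. In a fit of only the 8 stimulated samples the adjusted p was 0.0507, and with a pseudocount of 1 CPM (0.0158) or voom weights (0.0113) Penk was called. It was also called by limma with the replicate label as a block in those 8 samples (adjusted p 0.000524), a fit chosen after seeing the data.

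Lad1 had a log2 difference of -1.03 (SE 0.65, adjusted p 0.287 by limma; exact permutation p = 0.114), with mean CPM 1.89 times higher in YFP-. It was lower in 4 of 4 labels, by -0.47, -0.69, -1.21 and -1.73 for f2, m2, m3 and m4, and its groups overlapped. Without label m3 in all groups its adjusted p was 0.0474. With the replicate label as a block in only the 8 stimulated samples its adjusted p by limma was 0.0120. Both fits were chosen after seeing the data.

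1110032F04Rik differed least, by 0.46 in log2 (SE 0.22, adjusted p 0.153 by limma; exact permutation p = 0.143). Label f2 showed a difference of -0.01, and m2, m3 and m4 differences of 0.60, 0.36 and 0.87. Without YFP+ m4 the difference was 0.25 (adjusted p 0.422). It was called with quantile normalization (log2 difference 0.71, adjusted p 0.0412), centring (0.72, 0.0327), trimmed-mean scaling (0.61, 0.0479) and voom weights (0.60, 0.0247), settings under which the median of all genes moved to between -0.04 and 0.07.

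**Figure D2:**
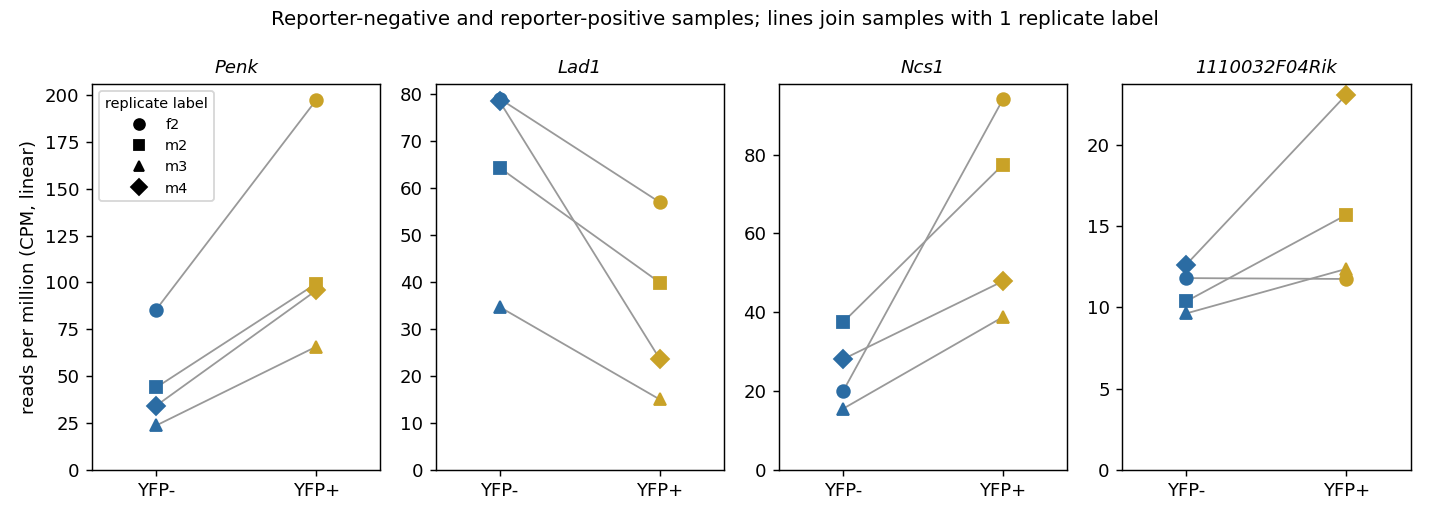
CPM (y axis, linear from 0) of each gene in YFP- and YFP+ samples (x axis), with a line joining samples of 1 replicate label. All 4 lines rise for Penk and Ncs1 and all 4 fall for Lad1, while for 1110032F04Rik the f2 line is flat at 11.8.

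Ratios between 2 genes in 1 library do not depend on how that library was scaled. Penk over Lad1 stood at a log2 ratio of -0.55 ± 0.54 in YFP- (SD, n = 4) and 1.82 ± 0.36 in YFP+, a change of 2.36 with no overlap (-1.20 to 0.12 against 1.32 to 2.14). Lad1 over Ncs1 went from 1.35 ± 0.51 to -1.02 ± 0.27, a change of -2.37, again with no overlap. Per kilobase, Ncs1 lay below Lad1 in every YFP- library and above it in every YFP+ library. Both changes had an exact 2-sided permutation p of 0.0286, the smallest possible here, and 0.0857 after Benjamini-Hochberg adjustment over the 6 ratios, so neither passed 0.05 adjusted. Penk over Ncs1 changed by -0.01, from 0.81 ± 0.88 to 0.80 ± 0.32 (exact p = 1.0). The other ratios overlapped between groups: Lad1 over 1110032F04Rik changed by -1.48 (exact p = 0.0571, adjusted 0.114), Penk over 1110032F04Rik by 0.88 (exact p = 0.2, adjusted 0.24) and Ncs1 over 1110032F04Rik by 0.89 (exact p = 0.143, adjusted 0.214).

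**Figure D3:**
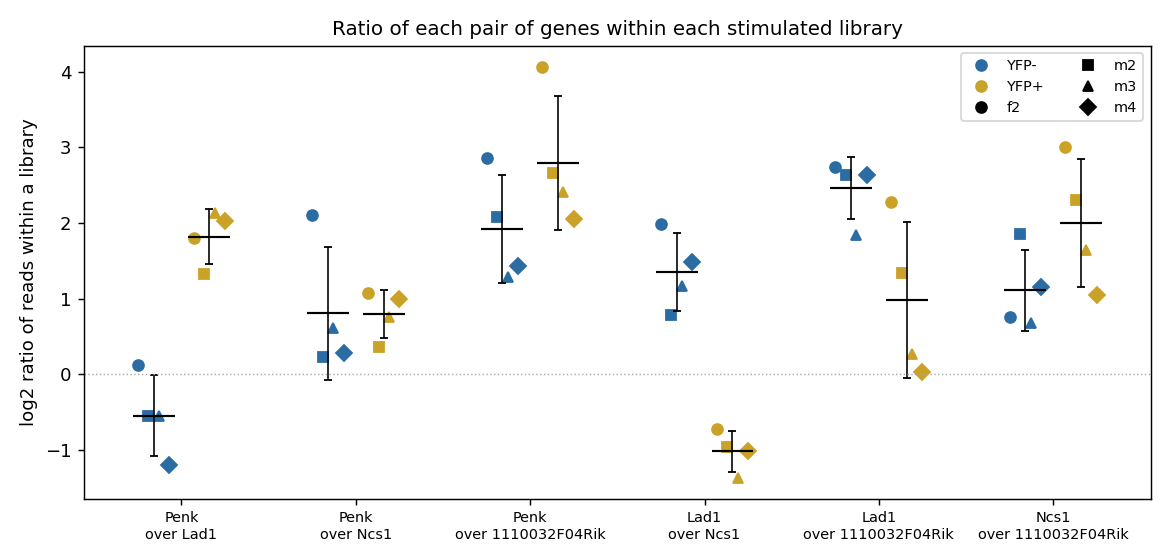
Log2 ratio of reads of 2 genes within a library (y axis) for the 6 pairs (x axis), YFP- in blue and YFP+ in yellow, with means as lines and bars of 1 SD (n = 4). Both pairs that set Lad1 against Penk or Ncs1 separate the groups fully.

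Sample m3 was the lowest of both stimulated groups for Penk, Lad1 and Ncs1 in all 6 scalings tried, one of which left the rRNA-like features out of the library totals. For 1110032F04Rik m3 was lowest in 2 of the 6 in YFP- and in 1 of the 6 in YFP+. Sample f2 was the highest for Penk in both groups in all 6.

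How many genes behave this way was counted with an explicit criterion. At most 10 reads in each unstimulated library was met by 39096 features, and 8 of these also had a log2 CPM above 2, about 4 CPM, in each of the 8 stimulated libraries. Penk, Lad1 and Ncs1 were chosen on these same values for few unstimulated reads and a large rise, so their places here are no support. They held ranks 1 to 3 by mean stimulated level, at 80.7, 48.9 and 44.9 CPM. After them came Wnt1, a secreted signalling ligand, at 21.5, Csf2, the cytokine GM-CSF, at 18.0, and Cd70, a TNF family ligand, at 14.7. Cd81, a tetraspanin, stood at 11.5 and Slc6a9, a glycine transporter, at 10.4. 1110032F04Rik fell outside through its 14 to 22 unstimulated reads. With the limit raised to its 22 reads, 20 genes met the criterion and it ranked 12th, at 13.4 CPM. Between reporter groups 1 of the 8 was called higher, Ncs1, as deposited (3.28% of all genes), and 4 after quantile normalization, centring or trimmed-mean scaling, which raised the genes called higher from 405 of 12364 to 1078, 1505 and 1016. The nearest to a call as deposited were Cd70 (log2 difference 0.83, adjusted p 0.0549), Wnt1 (1.71, 0.0593) and Slc6a9 (0.96, 0.0725) by limma.

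**Figure D4:**
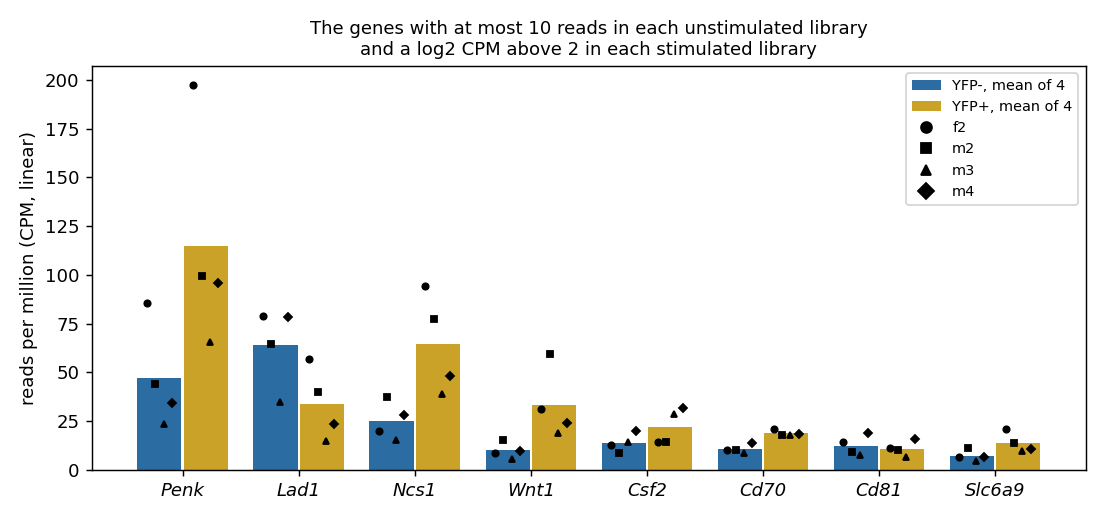
Mean CPM (bars from 0, n = 4) with each sample as a symbol, for the 8 genes that meet the read criterion, ordered by mean stimulated level. Penk, Lad1 and Ncs1, which were chosen for this pattern, lead, and Lad1 has the widest gap toward YFP-.

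The genes that share the opioid pathway with Penk fell into some near the floor and some well expressed. Of 25 listed genes 8 passed the filter on low values. The classical receptors stayed near the floor: Oprd1, Oprm1, Oprk1 and Oprl1, for the delta, mu, kappa and nociceptin receptors, had at most 5, 9, 1 and 2 reads in any library. Pcsk1, a convertase that cuts proenkephalin in neuroendocrine cells, had 0 reads in all 12 libraries, and Pcsk2, another, at most 5. The other precursors Pdyn and Pnoc had at most 2 and 6 reads, while Pomc, the precursor of beta-endorphin, stood at 1.93, 2.29 and 2.41 CPM in the unstimulated, YFP- and YFP+ groups and was not called. Ogfr, the opioid growth factor receptor, stood at 31.6, 60.4 and 30.2 CPM. Against unstimulated cells 5 of the 8 were called higher and 1 lower in YFP- (all genes, 30.2% and 20.9%), and 3 higher and 1 lower in YFP+ (27.5% and 33.3%). The rises were led by Scg2, encoding the granule protein secretogranin II, with 0 reads in all 4 unstimulated libraries. Its means were 0.548 ± 0.244 and 1.68 ± 0.559 CPM (SD, n = 4) in the YFP- and YFP+ groups. Scg2 passed the filter only through the YFP+ samples, so its calls against unstimulated cells, counted above, are no support. Ctsl, the protease cathepsin L, stood at 0.887, 7.86 and 7.63 CPM in unstimulated, YFP- and YFP+ cells, and passed the filter through the stimulated samples. Its calls against unstimulated cells, also counted above, are therefore no support either. Ece1, endothelin-converting enzyme, stood at 17.2, 81.4 and 116 CPM.

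Between reporter groups 1 of the 8 was called higher in YFP+, Scg2 (log2 difference 1.66, adjusted p 0.0317 by limma), which passed the filter only through the YFP+ samples, so its call is no support. Ogfr was lower (-1.09, adjusted p 0.00690), as was Npepps, the puromycin-sensitive aminopeptidase (-0.72, 0.00373). The list's median difference was -0.27, against -0.19 for all genes. These 3 calls stood in 3 of 3 other scalings, in each of which Ece1 was also called higher (log2 difference 0.53 and adjusted p 0.0844 as deposited).

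Relatives and partners of Ncs1 were counted next. Of 21 genes of the neuronal calcium sensor family and its partners 10 were tested, and 4 were lower in YFP+ than in YFP-: Ncald (log2 difference -0.88), a relative of Ncs1, Kcnip3 (-0.83), a calcium sensor of potassium channels, and the inositol trisphosphate receptor genes Itpr2 (-0.87) and Itpr3 (-0.96). Kcnip3 was not called in any of 3 other scalings and Itpr2 in only 1 of them. Over all genes 18.5% were lower in that comparison. Against unstimulated, 1 was called higher and 5 lower in YFP- (all genes, 30.2% and 20.9%), and 5 were called lower in YFP+ (33.3%). Hpcal1, another relative, fell from 139 CPM to 57.1 and 43.8, and Ric8a, a guanine exchange factor, rose from 63.4 to 124 CPM in YFP-. The medians of the 10 were -0.45 between reporter groups, and against unstimulated -0.26 for YFP- and -0.70 for YFP+, beside -0.19, 0.14 and -0.03 over all genes.

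Among 24 genes of basement membrane anchoring, desmosomes and keratins, the structures Lad1 is known from, 12 were tested. In YFP+ against YFP- 1 was called higher and 7 lower, beside 3.28% and 18.5% of all genes. The gene called higher was Sfn, the epithelial 14-3-3 sigma (11.4 CPM in YFP- and 27.8 in YFP+), and the lower ones were Itga6, Lamb3, Plec, Cd151, Jup, Pkp3 and Krt18, with log2 differences from -0.75 in Cd151 to -3.37 in Krt18. Krt18 stood near the floor in YFP+, so a few reads set the size of its difference. It passed the filter only through the unstimulated and YFP- samples, so its call, counted above, is no support. In 3 other scalings Cd151 was not called and Itga6 was called in 1. The list had 2 called higher and 5 lower in YFP- against unstimulated (all genes, 30.2% and 20.9%), and 2 and 7 in YFP+ (27.5% and 33.3%).

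All 13 genes listed from the AP-1 and CREB families of transcription factors were tested. Some members of these families are known to act at the Penk promoter in other cells. Against unstimulated 7 were called higher in YFP- (30.2% of all genes), led by Atf3 (1.75 to 130 CPM), Batf3 (0.326 to 13.8) and Fosl1 (0.358 to 4.09). Batf3 and Fosl1 lay under the filter on average without stimulation and passed it through the stimulated samples, so their calls against unstimulated are no support. In YFP+ 7 were called higher and 4 lower, the latter near the share of all genes (27.5% higher and 33.3% lower). Between reporter groups Fos (log2 difference -1.77), Jun (-1.14), Creb1 (-0.97) and Fosl2 (-0.55) were lower in YFP+, beside 18.5% of all genes. Fosl2 was not called in 3 other scalings.

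Markers of neurons and epithelium were followed because Penk, Ncs1 and Lad1 are best known there. The 8 neuron markers summed to between 0.154 and 0.526 CPM without stimulation, between 0.527 and 0.760 among YFP- samples, and between 1.37 and 2.23 among YFP+ samples. None of the 8 passed the filter, and Snap25 had at most 1 read in any library. The 9 epithelial markers summed to 8.26 to 9.79, 7.36 to 9.40 and 4.19 to 6.31 CPM in the same order, of which 3 passed the filter. Epcam stood at 3.05, 3.24 and 2.57 CPM, Cdh1 at 4.09, 2.94 and 2.32, and Krt18 at 1.52, 1.06 and 0.159, while Krt5 and Cldn4 had at most 1 read and Krt14 at most 5. The part of such cells in the levels of Penk, Ncs1 and Lad1 was not tested.

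The chromosomal surroundings were checked for shared change. Nearest to Lad1 on either side lie the muscle troponin genes Tnni1, 7608 bases away, and Tnnt2, 3011 bases away. Tnni1 also rose, standing at 11.2, 53.2 and 73.6 CPM in the 3 groups (log2 2.25 and 2.73 against unstimulated, limma adjusted p 4.14e-07 and 2.59e-08), and Tnnt2 stood at 0.789, 1.80 and 0.880 CPM and was not called. Next to Ncs1 lie Gpr107, which rose from 21.6 CPM to 41.3 and 34.6, and Hmcn2, at 0.370, 0.184 and 0.149 CPM. The nearest genes to Penk, Sdr16c6 and the pseudogene Gm11780, had at most 3 reads in an unstimulated library and at most 2 in a YFP+ one. Those of 1110032F04Rik were the pseudogene Gm7270, with 0 reads, and Ift80, at 2.93, 2.03 and 1.47 CPM. Of 40 protein-coding neighbours, 5 on each side of each gene, 25 were tested, and 7 were called in YFP+ against YFP-, each of them lower, beside 18.5% of all genes; after other scalings 1 was higher and 5 were lower. Against unstimulated, 7 were called higher and 5 lower in YFP-, and 7 and 9 in YFP+, shares close to those of all genes (30.2% and 20.9%, and 27.5% and 33.3%).

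On the opposite strand Penk overlaps A830012C17Rik, at 0.0281 CPM or less on average in each group, and 1110032F04Rik overlaps Gm17641, at 0.0422, 0.328 and 0.636 CPM in the 3 groups. Whether the counting used strand was not stated, so reads of such partners cannot be told apart.

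Genes whose log2 levels followed each of the 4 most closely over the 12 samples were listed as a description, since the 3 groups alone set much of such a correlation. For Penk these were Tsr2 (Pearson r 0.989), Cd63 (0.986) and Tacc2 (0.984), and 857 of 10278 genes, or 8.34%, had r above 0.9. Over the 8 stimulated samples alone r was 0.879, 0.558 and 0.675. For Lad1 they were Ptpn5 (0.989), Cd82 (0.985), a tetraspanin, and Tagap (0.983), at 0.876, 0.949 and 0.791 over the 8. For Ncs1 they were Hmox1, encoding heme oxygenase 1, Pou2af1 and Wnt10b, each at 0.994 and at 0.960, 0.964 and 0.909 over the 8. For 1110032F04Rik they were Pdgfa (0.996), a growth factor chain, Fgf18 (0.996) and Rbpj (0.995), the Notch pathway transcription factor. Over the 8 these stood at 0.825, 0.855 and 0.801. The share of genes with r above 0.9 was 8.19% for Lad1, 12.9% for Ncs1 and 11.7% for 1110032F04Rik. Hmox1 stood at 7.50, 134 and 242 CPM in the unstimulated, YFP- and YFP+ groups, and Cd82 at 164, 1301 and 999. Both were picked by their likeness to Ncs1 and Lad1 in these samples, so sharing the direction of those genes between reporter groups is no further result.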

How the data were processed

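RNA from 12 samples of sorted mouse NK cells was made into cDNA with a SMARTer Ultra Low kit and read as paired ends, per the labels' protocols. Per the submitters' processing notes, bcl2fastq, STAR 2.7.9a, Subread and featureCounts 2.0.3 and the build GRCm38 were used; annotation, strand setting and filters are not given in the sources used here. Values deposited by the authors are moderated log2 CPM in 1 table; the unit was read from the values. Of its 55774 lines 287 repeated earlier ones and were dropped. The deposited log2 values follow reads plus 0.5 reads scaled by the library total over the mean total of 40.7 M, and whole reads (within 0.1) were recovered for 100% of values. Sample columns belonging to no sample numbered 0.

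The 12364 genes whose log2 CPM passed 0 in 4 samples or more were fitted in limma 3.58.1 (R 4.3.3; lmFit, contrasts, eBayes with trend) with 1 coefficient per group over 12 samples, and called at a Benjamini-Hochberg adjusted p under 0.05. All 4 genes passed this filter through the stimulated groups. Single genes and ratios also had 2-sided exact permutation tests. CPM are recovered reads scaled to a library of 1 M. The 359 rRNA-like features were rRNA and mitochondrial rRNA genes with Lars2, Mir6236 and Gm23935. Python 3.11.15 with scipy 1.17.1, pandas 2.3.3, numpy 2.4.6 and matplotlib 3.10.9 did the rest. The scripts were tested on simulated data.

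The genes, gene lists and markers were chosen with earlier results of these data known. The genes named besides the 4 are, by rule, the 3 best correlated with each, its nearest and overlapping neighbours, the genes of the read criterion, the listed genes called between reporter groups, and up to 3 rises and 3 falls per list against unstimulated. Opioid precursors, receptors, convertases and single cell type markers were named after their values were seen. Alternatives were the replicate block, only the 8 samples compared, other filters, pseudocounts, scalings, weights and thresholds, and leaving out each library. A block with only 8 samples and leaving out label m3 were chosen after seeing the data.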

Additional observations from a re-analysis of the deposited data

Results flagged for a closer look

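Among 30 sets of 4 samples (levels of the 4 genes, their ratios, library totals and rRNA-like shares), 2 had a sample whose gap to its neighbour, divided by the range of the set, passed Dixon's 95% limit, where chance gives about 1.5. Lad1 in unstimulated samples had m3 lowest, with a gap ratio of 0.835; this is the library with 0 Lad1 reads, beside 4, 3 and 4 in the others. The log2 ratio of Lad1 over 1110032F04Rik in YFP- samples had m3 lowest too, with a gap ratio of 0.876; it was 1.84 there and up to 2.74 in the others. The rRNA-like share of that YFP- library was 30.3%, the highest of its group, and its part in the ratio was not tested.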

How the results depend on the processing

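The rise of each gene over unstimulated kept its direction in all 13 alternatives. A pseudocount of 1 CPM, which is larger than every unstimulated level, lowered the log2 rises in YFP- and YFP+ to 5.29 and 6.60 for Penk, 5.85 and 4.85 for Lad1, 4.46 and 5.77 for Ncs1, and 3.02 and 3.45 for 1110032F04Rik. Depth limits these folds, since 0 to 8 reads stand in the denominator of 3 genes.

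Between reporter groups the direction of all 4 genes stood in all 22 alternatives, with adjusted p (limma) from 0.000524 to 0.775 for Penk, 0.0120 to 0.775 for Lad1, 0.00273 to 0.199 for Ncs1 and 0.0247 to 0.477 for 1110032F04Rik. Penk was called with a pseudocount of 1 CPM (log2 difference 1.31) and voom weights (1.49), and 1110032F04Rik with quantile normalization (0.71), centring (0.72), trimmed-mean scaling (0.61) and voom weights (0.60). Ncs1, at 1.35, was not called with no filter (adjusted p 0.199) or at a threshold of 0.01. Leaving out 1 library or label m3 gave 1.14 to 1.56 for Ncs1 and -1.34 to -0.69 for Lad1, which was called without label m3. The causes were not tested. The number of genes called, 2691, was 1583 with no filter and 1466 at 0.01. The ratio of Penk over Ncs1, -0.01, was 0.00409 with a pseudocount of 1 CPM and ran from -0.20 to 0.42 when 1 library was left out, so its sign is not set.

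With the replicate label as a block, 3098 genes were called, and adjusted p was 0.0676 for Penk, 0.0679 for Lad1, 0.0139 for Ncs1 and 0.155 for 1110032F04Rik. With the block in only the 8 samples compared, a fit chosen after seeing the data, Penk (1.34, adjusted p 0.000524) and Lad1 (-1.03, 0.0120) were called. Deviations of same-label YFP+ and YFP- samples correlated at 0.05 for f2, 0.35 for m2, 0.37 for m3 and 0.17 for m4, with means of 0.03 for YFP- and 0.14 for YFP+ against unstimulated. Each sample was compared with those of the other groups, and 9 of 12 correlated best with a sample of their own label, a hint from the data. The number that chance would give was not worked out, and the labels themselves name no shared mouse.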
